A study of Mus musculus with 4 samples.

Results

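Transcripts of 10 heat shock proteins and chaperones were described in retinal microglia from which the kinase TAK1 had been deleted by induction and in control microglia. The genes were taken by symbol from the deposited table, in which all 10 of the 10 were found among 15586 genes. They comprised 4 stress-inducible cytosolic forms (Hspa1a, Hspa1b, Dnajb1 and Hsp90aa1), 2 constitutive cytosolic forms (Hspa8 and Hsp90ab1), 2 chaperones of the endoplasmic reticulum (Hspa5 and Hsp90b1) and 2 of the mitochondrion (Hspa9 and Hspd1). Microglia, the macrophages that reside in nervous tissue, came from 2-month-old mice with a tamoxifen-inducible Cre at the Cx3cr1 locus (Cx3cr1CreER/+) and floxed Tak1 alleles, in both groups. TAK1 knockout mice were injected with tamoxifen at 75 mg/kg for 5 days, and control mice with corn oil for 5 days. Each group had 2 libraries, each of 200 cells sorted on EYFP. The genotype field gives Tak3 for both knockout samples although their protocol gives Tak1, and the groups are called by their titles. Only the knockout group received tamoxifen, so deletion and drug cannot be told apart. Cx3cr1-driven Cre also acts in other mononuclear phagocytes that express Cx3cr1. The labels do not say whether libraries of a group came from different animals. The p-values therefore reflect the spread between these libraries only, and that spread may be technical.

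Chaperones bind unfolded protein and release it in cycles driven by ATP. HSP70 proteins take up short exposed stretches of a client with the help of J-domain partners such as DNAJB1. HSP90 proteins act later, on kinases, receptors and other nearly folded clients. Heat and other proteotoxic stress release heat shock factor 1, which drives the inducible forms, whereas the unfolded protein response of the endoplasmic reticulum drives Hspa5 and Hsp90b1. TAK1 itself is among the kinases reported as HSP90 clients, and the inducible forms are also known to respond to tissue dissociation and cell sorting.

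The promoters of the inducible HSP70 pair are shown because the pair is nearly identical in sequence, and stretches of Hsp90b1, Hspa5 and Hspd1 because they hold the long form of a stress element. Sequences precede the RefSeq start site in GRCm38.p6 and run 5′ to 3′ on the gene's strand. Bases -150 to -1 are given for the pair, -150 to -66 for Hsp90b1, and a site of 30 bases for Hspa5 and for the downstream start site of Hspd1. Capitals mark the elements described after them. RefSeq promoter entries were at hand for 6 of the 10 genes.
Hspa1a, chr17:34972157-34972306, minus strand: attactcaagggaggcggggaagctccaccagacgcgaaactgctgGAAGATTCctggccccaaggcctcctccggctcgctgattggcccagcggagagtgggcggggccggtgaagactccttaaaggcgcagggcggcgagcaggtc
Hspa1b, chr17:34959239-34959388, minus strand: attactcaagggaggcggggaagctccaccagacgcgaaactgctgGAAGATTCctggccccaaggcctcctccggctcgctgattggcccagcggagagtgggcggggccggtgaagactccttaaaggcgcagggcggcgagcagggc
Hsp90b1, chr10:86705510-86705594, minus strand: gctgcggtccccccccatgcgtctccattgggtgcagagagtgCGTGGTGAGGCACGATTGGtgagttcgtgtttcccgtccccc
Hspa5, chr2:34772020-34772049, plus strand: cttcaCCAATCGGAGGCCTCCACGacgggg
Hspd1, chr1:55088053-55088082, minus strand: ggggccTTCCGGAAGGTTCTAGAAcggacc

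Motifs were searched on both strands of the whole 300-base entries. The heat shock element, to which heat shock factors bind, was searched in a form of 3 units, GAANNTTCNNGAA, found in 0.603% of 32851 promoters. Its shorter forms of 2 units, GAANNTTC and TTCNNGAA, were found in 7.86% and 8.52% of promoters and overlap the longer form. Hspa1a and Hspa1b each held 1 GAANNTTC, from base -104 to base -97 relative to the start site. Hspd1 held 2 overlapping forms of 3 units, from base -144 to base -127. The ER stress response element, searched as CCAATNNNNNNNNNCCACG, was found in 0.119% of promoters. It lay at bases -65 to -47 of Hspa5 and at bases -107 to -89 of Hsp90b1, there on the opposite strand, and a further match of Hsp90b1 at bases -212 to -194 lies outside the stretch shown. Neither entry of Dnajb1 held any of these letters. A match describes letters and does not show that a factor was bound.

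The inducible HSP70 genes lie close together on chromosome 17, Hspa1a at 34969359 to 34972156 and Hspa1b at 34956429 to 34959238. Their promoter stretches above were identical in 149 of 150 bases (99.3%). Of all 50-base windows of the longest Hspa1b transcript in GENCODE M21, 62.3% occurred unchanged in Hspa1a, and of those of Hspa1a 58.8% occurred in Hspa1b. Reads that lie wholly within these stretches cannot be assigned to 1 of the 2 genes. How the authors' counting split them is not given in the sources used here. Windows also recurred in transcripts of other genes, chiefly processed pseudogenes, for Hspa8 (73.2%), Hsp90aa1 (58.5%) and Hspd1 (44.8%). Values of these 5 genes are uncertain for that reason, by an amount that the shares do not measure. The shares were 4.49% for Hsp90ab1, 4.1% for Hspa9, 3.71% for Hsp90b1, 0.407% for Dnajb1 and 0.0% for Hspa5.

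Values were FPKM, which are scaled by transcript length as well as library size. Levels of different genes can thus be set side by side, within the limit of the shared sequence given above. The number of reads per library is unknown. FPKM summed to 823229 and 812009 in knockout 1 and 2 and to 969700 and 863652 in control 1 and 2. Of the 7823 genes tested (those averaging 1 FPKM or more), 72.4% and 67.7% reached 1 FPKM in the knockouts, against 55.5% and 46.9% in the controls. The targeted gene, Map3k7, read 0.02 and 0.08 FPKM in the knockouts and 0.03 and 0 FPKM in the controls, and could not check the labels. All 15 microglia markers reached 1 FPKM in both knockouts and control 2, and 14 in control 1, where Sall1 was at 0.07 FPKM. Among them P2ry12 was at 829.5 to 1794 FPKM in the knockouts and 569 to 790.3 FPKM in the controls. As a background, 27.8% of genes tested had higher values in each knockout than in either control, and 11.4% had lower values. These shares depended on scaling and level, as given below. Both knockouts lay above both controls in 10 of the 15 microglia markers and below in 1. That was Cx3cr1, at 88.24 and 73.01 FPKM in the knockouts, against 100.55 and 88.89 FPKM in the controls.

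The 10 genes covered a wide range of levels. Hspa8, Hsp90aa1, Hsp90b1 and Hspa5 averaged 592, 427, 409.8 and 154 FPKM over the 4 libraries and were present in all of them. Hsp90ab1 averaged 60.7 FPKM, and Hspd1, Hspa9, Dnajb1, Hspa1a and Hspa1b averaged 20.8, 15.4, 12.7, 7.57 and 7.14 FPKM. The ranges of neighbours in that order overlapped, apart from Hsp90b1 (212 to 625 FPKM) and Hspa5 (36.3 to 205 FPKM). Hspa8 varied least, 1.64-fold between its highest and lowest library, followed by Hsp90aa1 at 2.23-fold and Hsp90b1 at 2.95-fold. All 5 genes with the lowest means were at 1 FPKM or more in knockout 1 and control 1, while 3 were under 1 FPKM in knockout 2 and 4 in control 2.

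None of the 10 genes passed limma's moderated test on log2(FPKM + 1) after Benjamini-Hochberg adjustment over 7823 genes (adjusted p = 0.698 to 0.961, smallest unadjusted p = 0.197). The same test called 0.0% of all tested genes in either direction, with a smallest adjusted p of 0.547, and 602 genes (7.7%) had an unadjusted p under 0.05. With a library left out the number of called genes was not stable. Such fits leave a lone library in a group, and only their differences and the order of their libraries are given below. Both knockouts lay above both controls in 2 of the 10 genes, Hsp90aa1 and Hspd1, where 27.8% of all tested genes did so. Both lay below in 1, Hspa1a, against 11.4% of all tested genes. The median difference, knockout minus control, was 0.50 log2 units over the 10 genes and 0.94 over all tested genes. This background depended on scaling and level: after quantile normalization the median was 0.59 over the 10 genes and 0.12 over all tested genes, of which 1434 lay above both controls and 1554 below. Among genes averaging at least 100 FPKM it was 0.54 over 4 of the 10 and -0.11 over all 1177, with 224 above and 312 below. With 2 libraries a group, the smallest p that exact permutation (two-sided) can give is 0.333.

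**Figure D1:**
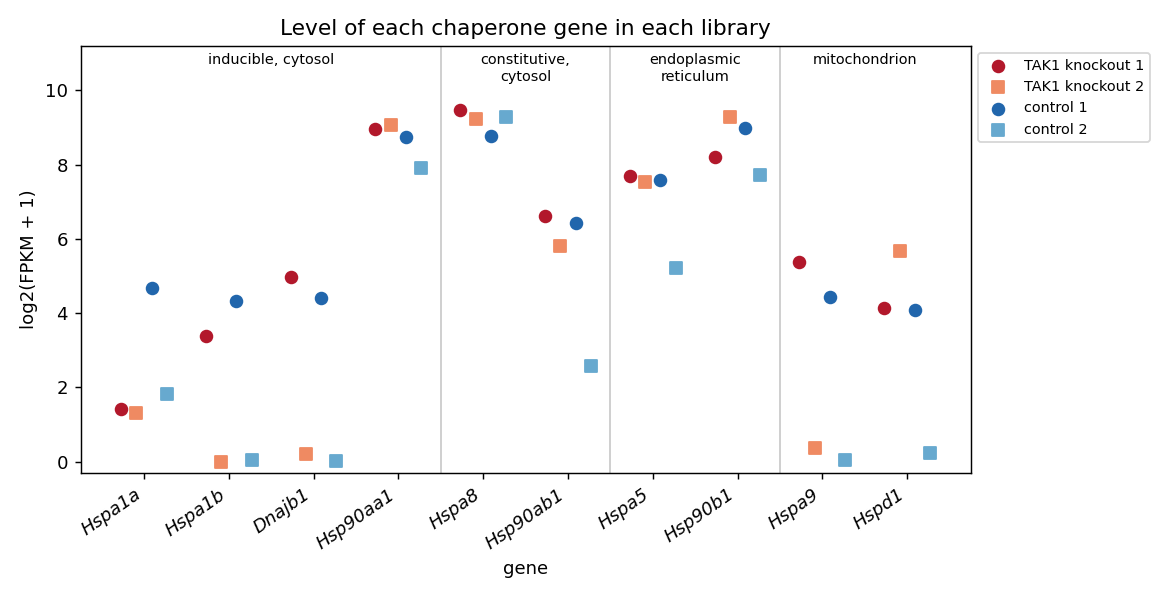
Level of the 10 genes, in log2(FPKM + 1), as 1 point per library (2 TAK1 knockout and 2 control libraries), grouped by form and compartment. Control 2 is the lowest library in 7 of 10 genes, and Hspa1b, Dnajb1 and Hspa9 are near 0 in knockout 2 and control 2.

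Hspa1a, an inducible cytosolic HSP70, read 1.66 and 1.5 FPKM in the knockouts, against 24.6 and 2.52 FPKM in the controls. Both knockouts lay below both controls, but control 2 was much nearer to the knockouts than to control 1. The difference was -1.88 log2 units (SE 1.79, 95% interval -6.26 to 2.50, limma adjusted p = 0.698), and it was -0.45 without control 1. Hspa1b, its near-identical copy, read 9.55 and 0 FPKM in the knockouts and 19 and 0.03 FPKM in the controls. The groups overlapped, with a high and a near-zero library in each. Its difference was -0.48 (95% interval -5.96 to 4.99, limma adjusted p = 0.941), and it turned to 1.66 without control 1 and to 1.22 without knockout 2. A value near 0 is no proof of silence in these libraries.

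Dnajb1, the J-domain partner that stimulates the ATPase of HSP70 and is itself heat-inducible (chromosome 8, 83608175 to 83612653), read 30.4 and 0.16 FPKM in the knockouts, against 20.1 and 0.02 FPKM in the controls. It followed the library numbers and not the groups, as Hspa1b did. The difference was 0.38 (SE 2.45, 95% interval -5.61 to 6.37, limma adjusted p = 0.961), and it was -1.80 without control 2 and -2.00 without knockout 1. Quantile normalization turned it to -0.08.

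Hsp90aa1, the inducible cytosolic HSP90 (chromosome 12, 110691036 to 110696395), was by contrast abundant in every library. It read 501 and 539 FPKM in the knockouts, against 427 and 241 FPKM in the controls, and stood above 92.2% to 96.7% of tested genes within each library. Both knockouts lay above both controls, by a margin over control 1 smaller than the spread between the controls. Its mean was 519.9 ± 26.5 FPKM in the knockouts and 334 ± 132 FPKM in the controls (SD, n = 2 each). The difference of 0.69 (SE 0.58, 95% interval -0.73 to 2.11) did not pass (limma adjusted p = 0.698). It was 0.28 without control 2 and 1.10 without control 1. In a bulk library, fewer cells of a type and less RNA per cell cannot be told apart.

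Hspa8, the constitutive cytosolic HSP70 that uncoats clathrin vesicles and takes proteins to the lysosome in chaperone-mediated autophagy (chromosome 9, 40801276 to 40805202), had the highest mean of the 10. It read 714 and 599 FPKM in the knockouts, against 436 and 619 FPKM in the controls. Knockout 2 lay between the controls. The mean was 657 ± 81.8 FPKM in the knockouts and 527 ± 129 FPKM in the controls (SD, n = 2 each), and the difference was 0.33 (SE 0.48, 95% interval -0.85 to 1.52, limma adjusted p = 0.743). It was 0.08 without control 1 and 0.58 without control 2.

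Hsp90ab1, the constitutive cytosolic HSP90 (chromosome 17, 45567778 to 45573261), read 97.6 and 54.6 FPKM in the knockouts, against 85.5 and 4.95 FPKM in the controls. Control 2 stood alone at the low end, and the other 3 libraries lay within 54.6 to 97.6 FPKM. The difference was 1.71 (SE 1.61, 95% interval -2.24 to 5.65, limma adjusted p = 0.698), and it turned to -0.22 without control 2.

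Hspa5, which encodes BiP, the HSP70 of the endoplasmic reticulum and a sensor partner of its unfolded protein response (chromosome 2, 34772090 to 34776529), read 205 and 184 FPKM in the knockouts, against 192 and 36.3 FPKM in the controls. Here again 3 libraries lay close together and control 2 was low. The difference of 1.20 (SE 1.06, 95% interval -1.40 to 3.80, limma adjusted p = 0.698) shrank to 0.02 without control 2. Hsp90b1, which encodes GRP94, the HSP90 of the endoplasmic reticulum that folds Toll-like receptors and integrins (chromosome 10, 86690841 to 86705444), read 294 and 625 FPKM in the knockouts, against 508 and 212 FPKM in the controls. The libraries of the groups alternated in order. Its difference was 0.38 (95% interval -1.40 to 2.16, limma adjusted p = 0.810), and it turned to -0.24 without control 2 and to -0.16 without knockout 2.

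Hspa9, mortalin, the HSP70 of the mitochondrial matrix that pulls in imported proteins, read 40.5 and 0.3 FPKM in the knockouts, against 20.8 and 0.04 FPKM in the controls. Like Hspa1b and Dnajb1 it was present in the libraries numbered 1 and near 0 in those numbered 2. The difference was 0.62 (95% interval -5.46 to 6.71, limma adjusted p = 0.929), and it turned to -1.57 without control 2 and to -1.87 without knockout 1. Hspd1, which encodes HSP60, the chaperonin of the matrix (chromosome 1, 55077833 to 55088243), read 16.6 and 50.5 FPKM in the knockouts, against 16.1 and 0.17 FPKM in the controls. Knockout 1 and control 1 were nearly equal, and the lack of overlap rested on 0.54 FPKM between them. The difference of 2.75 was the largest of the 10 (SE 1.90, 95% interval -1.89 to 7.40, limma adjusted p = 0.698), and it was 0.82 without control 2 and 4.69 without control 1.

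**Figure D2:**
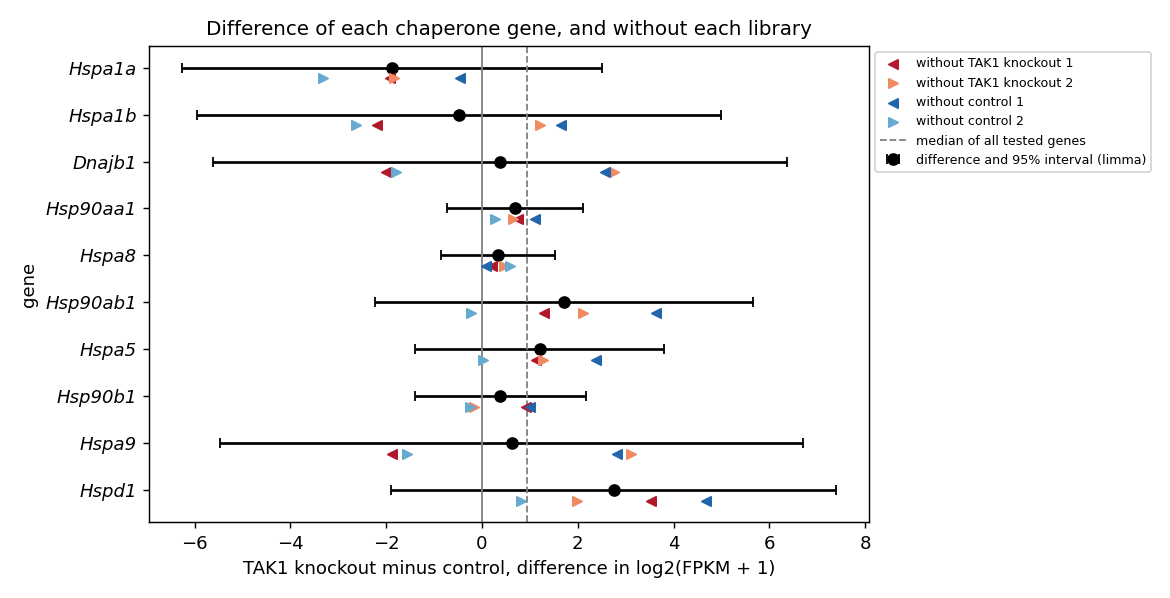
Difference of each of the 10 genes, TAK1 knockout minus control in log2(FPKM + 1), with limma's 95% interval (black) and the same difference without each library in turn (coloured triangles). All 10 intervals include 0, and without control 2 (light blue) the difference was lower in 9 of 10 genes than with all 4 libraries; the dashed line is the median of all tested genes, 0.94.

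Control 2 had the lowest value in 7 of the 10 genes, where it was the lowest library in 27.7% of all tested genes. It was the highest in 0 of the 10, against 19.6% of all tested genes. Summed over the 10 genes, FPKM were 1911 and 2054 in the knockouts, against 1749 and 1116 in the controls, or 0.232% and 0.253% of all FPKM in the knockouts against 0.18% and 0.129% in the controls. Without control 2 the median difference of the 10 genes was -0.23, and without control 1 it was 2.02. Of the 7823 tested genes, 375 (4.79%) were at 1 FPKM or more in both libraries numbered 1 and under 1 FPKM in both numbered 2, and 174 (2.22%) had the opposite pattern. Among the 10 chaperones 3 were present in the libraries numbered 1 alone and 0 in those numbered 2 alone. This count was made after the values of Hspa1b, Dnajb1 and Hspa9 were seen, and the labels do not say what the numbers stand for.

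Ratios between forms were taken within a library, where they do not depend on how libraries are scaled to each other. They still depend on how reads from shared sequence were assigned. The share of windows recurring in other genes was 73.2% for Hspa8, 58.5% for Hsp90aa1 and 4.49% for Hsp90ab1. The inducible HSP70 pair, summed, stood at 0.0157 and 0.00251 of Hspa8 in the knockouts, against 0.1 and 0.00412 in the controls. The constitutive form was the more abundant in each library. In the HSP90 pair the order was the opposite: inducible Hsp90aa1 was 5.13 and 9.86 times Hsp90ab1 in the knockouts, against 5 and 48.7 times in the controls. The ratio of knockout 1 and that of control 1 nearly matched, and control 2 stood apart.

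Among organelle forms, Hspa5 was 0.287 and 0.308 of Hspa8 in the knockouts, against 0.44 and 0.0587 in the controls. Hsp90b1 was 0.412 and 1.04 of Hspa8 in the knockouts, against 1.16 and 0.343 in the controls and exceeded Hspa8 in knockout 2 and control 1. Hspd1 was 0.0232 and 0.0844 of Hspa8 in the knockouts, against 0.0368 and 0.000275 in the controls. None of the 6 ratios compared separated the groups (exact two-sided permutation test over 4 libraries, p = 0.667 to 1, adjusted p = 1 over the 6), and the smallest p possible there is 0.333.

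**Figure D3:**
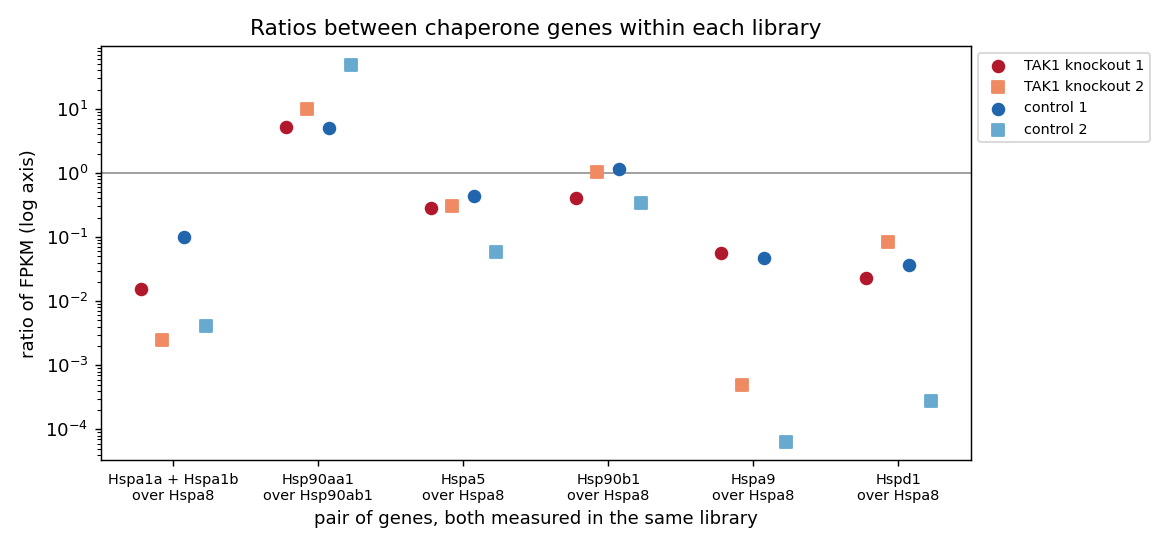
Ratio of FPKM between chaperone genes of the same library, on a log axis, as 1 point per library (2 TAK1 knockout and 2 control libraries). Hsp90aa1 exceeded Hsp90ab1 in all 4 libraries, by 5 to 48.7 times, and the inducible HSP70 pair was at 0.00251 to 0.1 of Hspa8. Sequence shared with other genes makes the values of Hspa1a, Hspa1b, Hspa8, Hsp90aa1 and Hspd1 uncertain.

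The rest of the chaperone network was described by 9 lists with 126 genes, of which 117 were in the table and 100 were tested. None passed the test in either direction, 7 had an unadjusted p under 0.05, both knockouts lay above both controls in 24 and below in 13, and the median difference was 0.85. The background was 27.8% above, 11.4% below and 7.7% at such a p, with a median of 0.94 that depends on scaling as given earlier. Genes named below were taken from the up to 4 most abundant tested members of each list.

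J-domain co-chaperones gave 6 of 21 above both controls and 3 below, with a median of 0.84 that was -0.058 without control 2, 0.28 without knockout 2 and 1.53 without knockout 1, and 1.30 when control 1 was left out. Dnajb9, a BiP partner induced by the unfolded protein response, read 221 and 481 FPKM in the knockouts, against 199.9 and 160.1 FPKM in the controls (limma adjusted p = 0.698). Dnajb6, which keeps aggregation-prone proteins soluble, read 289.7 and 610.3 FPKM in the knockouts and 450.01 and 338 FPKM in the controls, with overlap. Dnajc19 lay below both controls and Dnajc8 above them (limma adjusted p = 0.821 and 0.774). Other HSP70 and HSP110 genes gave 2 of 7 above, 0 below and a median of -0.017, which was 0.85 to 1.58 with any 1 library left out. Hspa14 read 244 and 14.2 FPKM in the knockouts, against 28.95 and 158 FPKM in the controls, and Hsph1, an HSP110 protein, read 0.02 and 10.8 FPKM in the knockouts, against 40.3 and 0.04 FPKM in the controls. The groups overlapped in both. Hspa4, an HSP110-type exchange factor for HSP70, read 22.1 and 7.63 FPKM in the knockouts, against 0.07 and 0.04 FPKM in the controls (limma adjusted p = 0.677).

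HSP70 partners and exchange factors gave 3 of 7 above and 1 below, with a median of 2.18 (0.29 without knockout 2). Of the 7, 3 had an unadjusted limma p under 0.05, against 7.7% of all tested genes, and these 3 did not share a direction. St13, the HSP70-interacting protein that stabilises its ADP-bound state, read 271 and 498 FPKM in the knockouts, against 921 and 932 FPKM in the controls. Both knockouts lay below both controls, by more than the spread within either group (difference -1.33, SE 0.52, limma adjusted p = 0.636). Stub1, the ubiquitin ligase CHIP that marks HSP70 and HSP90 clients, was near 0 in both controls (0.12 and 0 FPKM) and read 69.1 and 8.13 FPKM in the knockouts (limma adjusted p = 0.637). Bag1, an exchange factor of HSP70, read 76.1 and 137 FPKM in the knockouts, against 119 and 251 FPKM in the controls, and Grpel1, an exchange factor of the mitochondrial HSP70, read 37.5 and 42.5 FPKM in the knockouts, against 37.6 and 24.8 FPKM in the controls. Both overlapped between groups. HSP90 co-chaperones gave 3 of 15 above and 1 below, with a median of 1.56. The member below was Ptges3, the p23 protein that holds HSP90 closed on its client, at 87 and 601 FPKM in the knockouts, against 1086 and 789 FPKM in the controls (limma adjusted p = 0.698). Chordc1 read 0.18 FPKM in knockout 1 and 171 to 232 FPKM in the other 3 libraries.

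The cytosolic chaperonin and prefoldin, which fold actin and tubulin, gave 3 of 14 above and 2 below, with a median of 1.60 that turned to -0.43 without control 2, the lowest library in 8 of the 14. Prefoldin subunits stood among the most abundant: Pfdn5 read 349 and 445 FPKM in the knockouts, against 481 and 826 FPKM in the controls, whereas Pfdn6 read 159 and 269 FPKM in the knockouts, against 55.4 and 112 FPKM in the controls. Of the small heat shock proteins 3 were tested, with 1 above and 0 below. Cryab, the alpha-B crystallin also made by glia, read 70.7 and 39.9 FPKM in the knockouts, against 0.08 and 74.1 FPKM in the controls. Among heat shock factors and their regulators, 0 of 3 tested lay above or below. Hsf1, the master heat shock factor, was at 0 in both knockouts and read 0 and 0.09 FPKM in the controls, and Hsf2 read 29.2 and 44.3 FPKM in the knockouts, against 19.5 and 111 FPKM in the controls. Hsbp1, which binds heat shock factor trimers, read 621 and 692 FPKM in the knockouts, against 1318 and 669 FPKM in the controls.

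In the endoplasmic reticulum list, 4 of 19 lay above both controls and 4 below, with a median of 0.59 that turned to -0.045 when control 2 was left out, and was 0.12 without control 1, 0.21 without knockout 1 and 0.90 without knockout 2. Calnexin (Canx), a lectin chaperone of glycoproteins, read 197 and 316 FPKM in the knockouts, against 561 and 441 FPKM in the controls, and its partner oxidoreductase Pdia3 read 483 and 347 FPKM in the knockouts, against 258 and 324 FPKM in the controls (limma adjusted p = 0.698 and 0.7). Manf and Selenos, both induced by the unfolded protein response, overlapped between groups. In the mitochondrial list 2 of 11 lay above and 2 below, with a median of -0.48 that turned to 0.67 when control 1 was left out, and was -0.86 without control 2 and -0.29 without knockout 2. Hspe1, the HSP10 lid that caps HSP60 and shares a divergent promoter region with Hspd1, read 258 and 344 FPKM in the knockouts, against 543 and 558 FPKM in the controls (difference -0.88, SE 0.54, limma adjusted p = 0.698). It stood below both controls where Hspd1 stood above them, and its level exceeded that of Hspd1 in all 4 libraries.

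**Figure D4:**
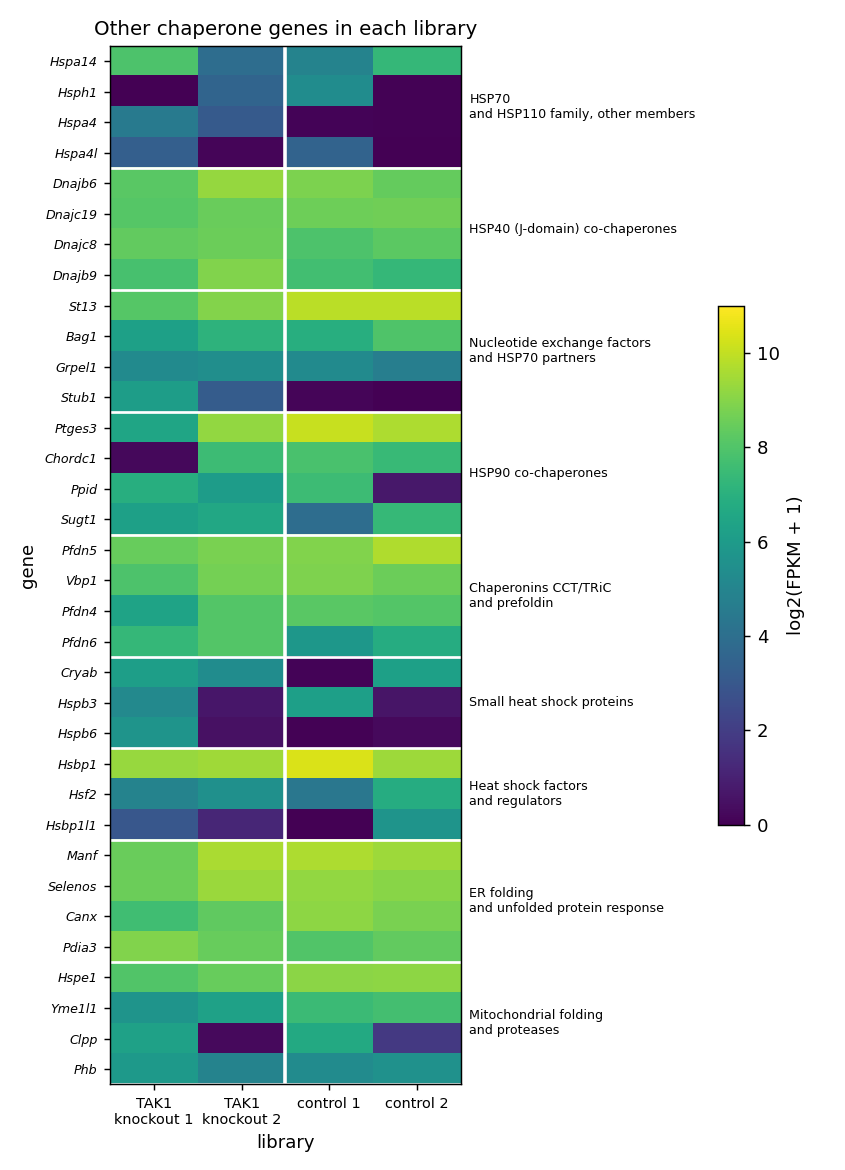
Level, in log2(FPKM + 1), of the up to 4 most abundant tested genes of each of 9 chaperone lists (rows) in the 2 TAK1 knockout and 2 control libraries (columns). In both knockout columns 8 genes are lower than in both control columns (Dnajc19, St13, Ptges3, Pfdn5, Pfdn4, Canx, Hspe1 and Yme1l1). In 7 genes both are higher (Hspa4, Dnajc8, Dnajb9, Stub1, Pfdn6, Hspb6 and Pdia3), and none is past the test. For Hspb6 this rests on values near 0, 0.41 FPKM in knockout 2 against 0.22 FPKM in control 2. Of all 7823 tested genes 890 (11.4%) are lower and 2174 (27.8%) higher. Of the 1177 tested genes averaging at least 100 FPKM, 312 are lower and 224 higher. Dark cells mark values near 0 FPKM.

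No marker of other cells passed the test, and the lists differed in how their members lay. Both knockouts lay above both controls in 13 of 17 rod markers and below in 0. The corresponding background shares were 27.8% and 11.4% of the 7823 genes tested, and they depend on scaling and level as given earlier. Rod markers summed to 7342 and 11992 FPKM in the knockouts, against 3055 and 4106 FPKM in the controls. Bipolar cell markers, 6 of 7 above and 0 below, summed to 926 and 833.5 FPKM in the knockouts, against 4.55 and 180 FPKM in the controls. Monocyte markers, 0 of 7 above and 2 below, summed to 58.4 and 123 FPKM in the knockouts, against 956 and 1331 FPKM in the controls. The 2 below, Cd209a (503 and 886 FPKM in the controls) and Ccr2 (316 and 151 FPKM), made up most of the control sums. The other tested monocyte markers overlapped between groups. F13a1, which stands in both the monocyte and the perivascular macrophage list, read 119 FPKM in knockout 2 and at most 0.18 FPKM elsewhere. Amacrine and ganglion cell markers lay above both controls in 3 of 5 tested, with Pou4f1 at 0 in all 4 libraries, and Müller glia and astrocyte markers in 1 of 8, with 1 below. Perivascular macrophage markers, 0 of 8 above and 2 below, summed to 189.9 and 834 FPKM in the knockouts, against 2334 and 1752 FPKM in the controls, but their median difference of -0.82 was 2.73 without knockout 1 and 2.89 without control 1. Cone markers gave 2 of 7 above and 1 below, endothelial and mural cell markers 3 of 3 above, and microglia markers 10 of 15 above and 1 below. Only 3 of the 10 listed endothelial and mural cell markers were tested. Of these, Rgs5 read 60.2 and 0.1 FPKM in the knockouts, against 0.03 and 0.06 FPKM in the controls, a lack of overlap near 0. Lymphocyte and red blood cell markers that were measured stood at or near 0, with sums of at most 0.15 FPKM. All of these cells express cytosolic chaperones, and their part in the values above was not tested.

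Of the immediate-early genes that respond to tissue dissociation, 3 of 20 lay above both controls and 3 below, with a median of 0.53. That split depended on scaling and on single controls: it was 2 above and 8 below after quantile normalization (median -0.55), 3 above and 11 below without control 2 (median -0.79), and 12 of 19 above and 3 below without control 1 (median 1.14). Over all tested genes it was 2174 above and 890 below of 7823, and 1434 and 1554 after quantile normalization. There it was 3225 and 2094 of 7668 without control 2, and 3416 and 1852 of 7542 without control 1. The immediate-early genes summed to 2795 and 1330 FPKM in the knockouts, against 2632 and 1398 FPKM in the controls. These sums were about equal in both libraries numbered 1 and lower in both numbered 2. They rest largely on a few abundant genes, of which Fos did not follow that order. Fos read 411 and 220.1 FPKM in the knockouts, against 692 and 679 FPKM in the controls, and Dusp1 read 1278 and 404 FPKM in the knockouts, against 542 and 169 FPKM in the controls. Control 2 was the lowest library in 10 of the 20, and in 7 of the 10 chaperones. The part of dissociation in the chaperone values was not tested.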

How the data were processed

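The authors deposited 1 FPKM value per gene and library, rounded to 2 decimals, per the file headers. The submitters' processing notes name the genome build mm10. Aligner, quantifier and annotation: not given in the sources used here. Depth per library is unknown: of genes between 0.1 and 1 FPKM in a pair of libraries, at most 13.8% shared 1 ratio bin of 0.1 log2 units, so no step of 1 read could be read from the values. Columns were matched to samples by title. Genes averaging 1 FPKM or more were tested (7823), on log2(FPKM + 1), a scale on which changes of low genes are understated. Knockout was compared with control by limma 3.58.1 (R 4.3.3; trended variance, residual degrees of freedom 2, prior 3.99), with Benjamini-Hochberg adjustment over all tested genes and a threshold of 0.05. The code was tested on simulated data. Coordinates and promoters came from RefSeq tables of GRCm38.p6, and shared 50-base windows from GENCODE M21 transcripts of GRCm38, the same build as mm10. The 10 genes, the 21 lists and the tests were chosen with earlier results of these data known. Named genes were the 10, up to 4 (chaperone lists) or 3 (other lists) tested members with the highest mean, and Map3k7. P2ry12, Cx3cr1, Sall1, Hsf1, Pou4f1 and F13a1 were named after their values were seen. Alternatives were a pseudocount of 0.1, 0.5 or 5; no filter, or 5 FPKM as the minimum mean; scaling by sum, by median ratio or by quantiles; untrended and robust variances; a block for the replicate number; an adjusted p under 0.1; and leaving out each library. A minimum mean of 100 FPKM was added later, with the data known.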

Additional observations from a re-analysis of the deposited data

How the results depend on the processing

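None of the 10 chaperone genes passed the test under any alternative that kept all 4 libraries (limma adjusted p = 0.597 to 0.991). Of the 10, 5 kept their direction under every alternative: Hspa1a, Hsp90aa1, Hspa8, Hspa5 and Hspd1. Changes of filter, variance or block leave a gene's difference as it is, so its direction could not turn there. Hspa5 was at only 0.02 without control 2. Quantile normalization turned Dnajb1 to -0.077. With each library left out in turn, the difference ranged over -2.00 to 2.76 for Dnajb1, -0.22 to 3.64 for Hsp90ab1, -0.24 to 1.01 for Hsp90b1, -2.62 to 1.66 for Hspa1b and -1.87 to 3.12 for Hspa9; the lone library left in a group is there assumed to vary like the others. The count of all genes called was 0, and it was 5 after quantile normalization, 35 with the replicate number as a block, and 0 to 1311 with a library left out (701 without knockout 1 and 1311 without knockout 2). The numbers do not pair the samples by the labels, and deviations of same-numbered libraries correlated at 0.02 across genes; the block called none of the 10.

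The median difference of HSP90 co-chaperones, 1.56 over 15 genes, was 2.38 with a pseudocount of 0.1, 0.67 with 5 and 0.62 after quantile normalization. It was -2.89 over the 2 genes averaging at least 100 FPKM, and 1.36 to 2.63 with a library left out. The median of HSP70 partners, 2.18 over 7 genes, was 3.22, 2.94 and 0.80 with pseudocounts of 0.1, 0.5 and 5, and 1.17 after quantile normalization. It was 0.21 over 12 genes with no filter, 1.51 over the 6 averaging at least 5 FPKM and -1.04 over the 2 averaging at least 100 FPKM. It ranged over 0.29 to 2.74 with a library left out. With a library left out, chaperonins ranged over -0.43 to 2.09, heat shock factors and regulators over -1.60 to 0.85, and small heat shock proteins over -0.29 to 3.02. The knockouts lay above the controls in 2 of the 10 genes, and in 4 after rescaling to the same sum. They did so in 1 of those averaging at least 100 FPKM, and in 3 to 7 with a library left out. Over all tested genes this held for 2174 of 7823, and for 2432 after rescaling. It held for 224 of the 1177 averaging at least 100 FPKM. Without knockout 1 and 2 in turn it held for 2970 of 6863 and 3220 of 7068. Without control 1 and 2 in turn it held for 3416 of 7542 and 3225 of 7668. The causes were not tested. Depth is unknown, so values near 0 FPKM cannot be given a limit.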
